A study of Mus musculus with 6 samples.

Results

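The 34 genes described here make, import, store, export or desaturate lipids, and most of them serve the synthesis and handling of cholesterol. They were listed by name, all 34 were found in the table of 54232 genes by their GENCODE symbols, and all 34 passed the filter on low counts that left 20153 genes. RNA was sequenced from whole testes of mice at postnatal day 4, in 3 wild-type samples (WT) and 3 conditional knockout samples (cKO) of Dis3l2, which encodes an exoribonuclease that degrades RNAs with an oligouridine tail. The labels give B6D2F1 as the strain of both groups, and the study asked which genes are expressed differently with the knockout. The labels name neither the Cre driver nor the deleted exons, and they do not say whether samples came from separate or pooled animals, so each p-value reflects only how these samples vary, which may be technical.

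Cells build cholesterol from acetyl-CoA, first through the mevalonate pathway to isoprenoids and then through squalene and a series of sterols. When sterols run low in the endoplasmic reticulum, SCAP escorts the SREBP transcription factors to the Golgi for cleavage, and SREBP-2 then activates nearly every enzyme gene of the pathway together. INSIG proteins hold SCAP back when sterols are plentiful, and the LXR receptors switch on the efflux pumps ABCA1 and ABCG1. In the testis, Leydig cells use cholesterol for androgen synthesis, Sertoli cells take up lipoproteins and pass lipids to germ cells, and the CYP51 product FF-MAS is known as a meiosis-activating sterol.

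The libraries held 26126694 to 43265614 counts. Dis3l2 itself had 31.0 to 32.8 CPM in the WT libraries (CPM, counts scaled to library sizes that were normalized by TMM) and 30.6 to 33.6 CPM in the cKO libraries, so these whole-gene counts give no check of the genotype (log2 fold change -0.01, SE 0.07, edgeR adjusted p = 0.956). Below, cKO means a library that carries this label. Markers of the testis were present, with summed levels of 10 Sertoli cell genes between 4331 and 5481 CPM. Germ cell transcripts were lower in cKO, where 8 of 10 markers fell (adjusted p under 0.05 in edgeR) and the summed level was 625 to 664 CPM against 1147 to 1209 CPM in WT. Over all genes tested, 4.94% were called lower. The library of cKO replicate 1, the smallest, stood apart from the rest of its group. In the 10 interstitial stroma markers it had a summed 12882 CPM, among the WT sums of 12309 to 13255 CPM. The other cKO libraries lay below WT, at 9829 and 9930 CPM. In the 10 peritubular myoid markers it had 2557 CPM, against 2005 and 2021 CPM in cKO and 2073 to 2150.5 CPM in WT. It also had the most genes with a count, 36184, against 29741 and 29846 in the other cKO libraries and 32855 to 33898 in WT. In these whole testes, fewer cells of a type and less RNA per cell cannot be told apart.

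The cholesterol and desaturase genes differed little between the genotypes. Of the 34, 2 rose and 0 fell in cKO at an adjusted p under 0.05 in edgeR's quasi-likelihood test (5.88% called). Of all genes tested, 8.34% were called, with 3.4% higher and 4.94% lower. Of genes at least as abundant as the least abundant member, 11% were called. The 2 that rose were Pmvk, which encodes phosphomevalonate kinase, and Vldlr, which encodes the very low density lipoprotein receptor. DESeq2 and limma-voom each also called 2 members higher and 0 lower. At an unadjusted p under 0.05 there were 6 members, 17.6% of them, against 23.3% of all genes. The members had a median log2 fold change (cKO over WT) of -0.01 and all genes one of 0.01, with 16 members fitted above 0 and 18 below.

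The precision of these values was better than for most genes. The 95% interval of a member's log2 fold change had a median half-width of 0.17, against 0.27 over all genes tested. For 31 of the 34 members the whole interval lay within 0.5 of 0 on the log2 scale, and for 17 it lay within 0.25. The members outside the wider band were Pmvk (0.21 to 0.58), Idi1 (-0.51 to -0.10) and the weakly expressed Tm7sf2 (-0.69 to 0.52). In 8 of the 34 members the 3 cKO values lay wholly above or wholly below the 3 WT values, 23.5% of them, against 28.2% of all genes. Those higher in cKO were Pmvk, Vldlr and Soat1 (3 of 34, against 13.6% of all genes), and those lower (5 of 34, against 14.6%) were Idi1, Cyp51, Sc5d, Insig1 and Stard4.

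**Figure D1:**
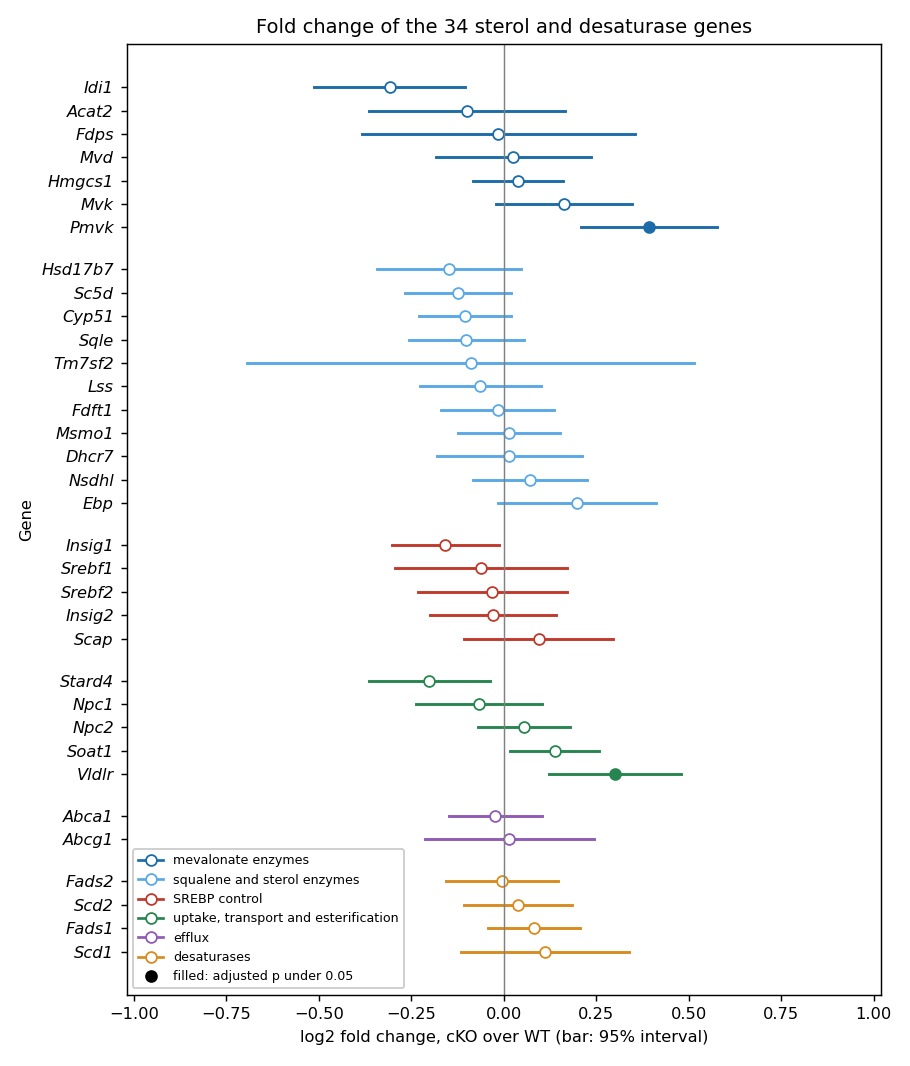
Log2 fold change of cKO over WT (horizontal axis) for each of the 34 genes, grouped by role, with bars for the 95% interval and filled points for an adjusted p under 0.05. Pmvk at 0.39 and Vldlr at 0.30 are the filled points, Idi1 at -0.31 is the lowest, and 31 of the 34 points lie within 0.25 of 0.

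The 7 genes from acetyl-CoA to farnesyl diphosphate showed the highest and the lowest fold change of the whole set. Pmvk rose, Idi1 was lower without passing the threshold, and the other 5 lay between -0.10 and 0.16. Pmvk (chromosome 3, 89454541 to 89469013, GRCm38, plus strand) had 19.7, 21.3 and 21.5 CPM in the WT libraries and 29.8, 26.5 and 25.8 CPM in the cKO libraries. The lowest cKO value thus stood above the highest WT value. Its log2 fold change was 0.39 (SE 0.08, edgeR adjusted p = 0.0135), a rise of 31.2%. Leaving out WT replicate 1 or 2 ended the call, with edgeR adjusted p = 0.0778 and 0.0643 and log2 fold changes of 0.35 and 0.41. No stretch of 50 bases of its transcripts is shared with a transcript of another annotated gene.

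Idi1, which encodes the isomerase that turns isopentenyl diphosphate into dimethylallyl diphosphate, had 17.4, 17.2 and 20.1 CPM in WT against 14.6, 15.3 and 14.3 CPM in cKO. The groups did not overlap, and the difference just missed the threshold (log2 fold change -0.31, SE 0.09, edgeR adjusted p = 0.0653). It passed once cKO replicate 1 was left out (-0.31, edgeR adjusted p = 0.0427) and, scaled by library size only (-0.33, 0.0469). Of the stretches of 50 bases in its transcripts, 25.3% also occur in other gene models, and multi-mapping reads did not enter the counts.

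The remaining genes of the mevalonate branch had overlapping groups. Hmgcs1, which encodes the cytosolic HMG-CoA synthase and is a classical SREBP-2 target, had 269, 284 and 268 CPM in WT against 262, 296 and 285 CPM in cKO, with a 95% interval of the log2 fold change from -0.08 to 0.16. Mvk (mevalonate kinase), the enzyme just before PMVK, had 30.9, 35.1 and 30.8 CPM in WT against 33.1, 36.0 and 39.2 CPM in cKO. Of the cKO values, 2 lay above all WT values and 1 among them, and the log2 fold change of 0.16 (SE 0.08) had an edgeR adjusted p of 0.274. Mvd, the decarboxylase that follows PMVK, had a log2 fold change of 0.03 with an interval from -0.18 to 0.24, and Acat2, a cytosolic thiolase, had -0.10 with an interval from -0.37 to 0.16. Acat2 shares 39.1% of its stretches of 50 bases with Acat3, and Hmgcs1 shares 11.6% with other genes. Fdps, the farnesyl diphosphate synthase gene, had only 3.05 to 3.89 CPM in WT against 3.25 to 3.47 CPM in cKO (log2 fold change -0.02, SE 0.17). Reads in the 26.7% of its exonic bases that overlap the model Gm43738 on the same strand were not counted.

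The bases just before the start of 3 members are shown, because Pmvk and Vldlr were the genes called and Hmgcs1 was the single member whose window held the letters of a sterol regulatory element. They are from RefSeq on GRCm38.p6, 200 bases each on the plus strand, at chr3:89454341-89454540 for Pmvk, chr19:27216284-27216483 for Vldlr (the first of its start sites in the table) and chr13:119690151-119690350 for Hmgcs1. Capitals mark matches, on either strand, to the sterol regulatory element letters TCACNCCAC, the NF-Y box CCAAT, the GC box GGGCGG and the E-box CACGTG.
Pmvk: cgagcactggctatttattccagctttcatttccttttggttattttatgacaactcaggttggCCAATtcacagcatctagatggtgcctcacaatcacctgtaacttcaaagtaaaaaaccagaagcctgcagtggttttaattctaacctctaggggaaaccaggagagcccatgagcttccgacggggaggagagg
Vldlr: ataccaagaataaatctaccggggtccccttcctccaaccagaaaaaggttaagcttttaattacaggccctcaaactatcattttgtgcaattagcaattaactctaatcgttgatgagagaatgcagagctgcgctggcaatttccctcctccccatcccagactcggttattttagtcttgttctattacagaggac
Hmgcs1: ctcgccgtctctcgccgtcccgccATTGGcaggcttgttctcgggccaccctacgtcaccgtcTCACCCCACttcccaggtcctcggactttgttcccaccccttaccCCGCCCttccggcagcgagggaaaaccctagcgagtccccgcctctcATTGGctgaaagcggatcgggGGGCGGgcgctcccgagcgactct

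The Hmgcs1 stretch held 1 sterol regulatory element match, 2 NF-Y boxes and 2 GC boxes, the Pmvk stretch held 1 NF-Y box, and the Vldlr stretch held 0 matches. The window of the other Vldlr start held an NF-Y box and a GC box, and Pmvk was the only one of the 25 matched members without a GC box. SREBPs bind such elements together with NF-Y and Sp1, which recognise the NF-Y box and the GC box. Windows of 250 bases before to 50 bases after the start were matched for 25 of the 34 members, and those of Fdps, Fdft1, Sqle, Npc1, Stard4, Abcg1, Fads1, Scd1 and Scd2 were not used here. The NF-Y box was found in 21 of the 25 members (84.0%) and in 42.5% of the 12788 tested genes with a window, the GC box in 24 (96.0%) against 64.4%, the E-box in 6 (24.0%) against 11.03%, and the sterol regulatory element in 1 (4.0%) against 1.48%. Over all 32851 windows of that length the shares were 37.4%, 35.7%, 7.15% and 1.24%. Matches to different motifs did not overlap in any member's window. The median log2 fold change was 0.01 in the 21 members with an NF-Y box and -0.01 in the 4 without.

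From squalene to cholesterol, 0 of the 11 enzyme genes passed the test in edgeR, DESeq2 or limma-voom, and 0 had an unadjusted p under 0.05 in edgeR. In edgeR 8.34% of all genes tested passed and 23.3% had such a p. The fold changes of the 11 genes ran from -0.15 to 0.20 on the log2 scale with a median of -0.06. Cyp51, the lanosterol demethylase gene, had 70.5, 69.7 and 74.8 CPM in WT against 64.7, 66.9 and 68.2 CPM in cKO. Sc5d, which encodes the sterol C5 desaturase, had 40.8, 38.6 and 41.5 CPM in WT against 37.7, 35.9 and 37.3 CPM in cKO. In both genes the 3 cKO values lay below the 3 WT values by a small margin, with log2 fold changes of -0.10 (SE 0.06, edgeR adjusted p = 0.308) and -0.12 (SE 0.07, edgeR adjusted p = 0.286).

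Hsd17b7, which encodes a 3-ketosteroid reductase, had 20.6, 18.8 and 17.9 CPM in WT against 16.6, 18.2 and 17.0 CPM in cKO, and Ebp, the sterol isomerase gene, had 14.3, 15.9 and 16.3 CPM in WT against 16.0, 19.2 and 18.1 CPM in cKO. Each pair of groups overlapped, with log2 fold changes of -0.15 (SE 0.09, edgeR adjusted p = 0.362) and 0.20 (SE 0.10, edgeR adjusted p = 0.254). Squalene epoxidase, an early control point of the sterol branch and encoded by Sqle, had a 95% interval from -0.26 to 0.05. The intervals were -0.17 to 0.14 for Fdft1 (squalene synthase) and -0.23 to 0.10 for Lss (lanosterol synthase). They were -0.08 to 0.22 for Nsdhl and -0.18 to 0.21 for Dhcr7, the gene of the last reductase. Of the stretches of 50 bases in Fdft1 transcripts, 26.5% also occur in other gene models. Msmo1, the C4-methylsterol oxidase gene, had 41.7, 43.9 and 44.5 CPM in WT against 43.0, 45.1 and 43.2 CPM in cKO (log2 fold change 0.01, SE 0.06, edgeR adjusted p = 0.931). Its locus is in the chromosome 8 segment from 30 to 95 Mb, in which 20.5% of the genes tested were called against 8.03% elsewhere. Tm7sf2, a C14 sterol reductase gene, was near the lower end of what was measured, with 1.31 to 1.88 CPM in WT against 1.03 to 1.75 CPM in cKO, and 47.2% of its exonic bases overlap other models on its strand.

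**Figure D2:**
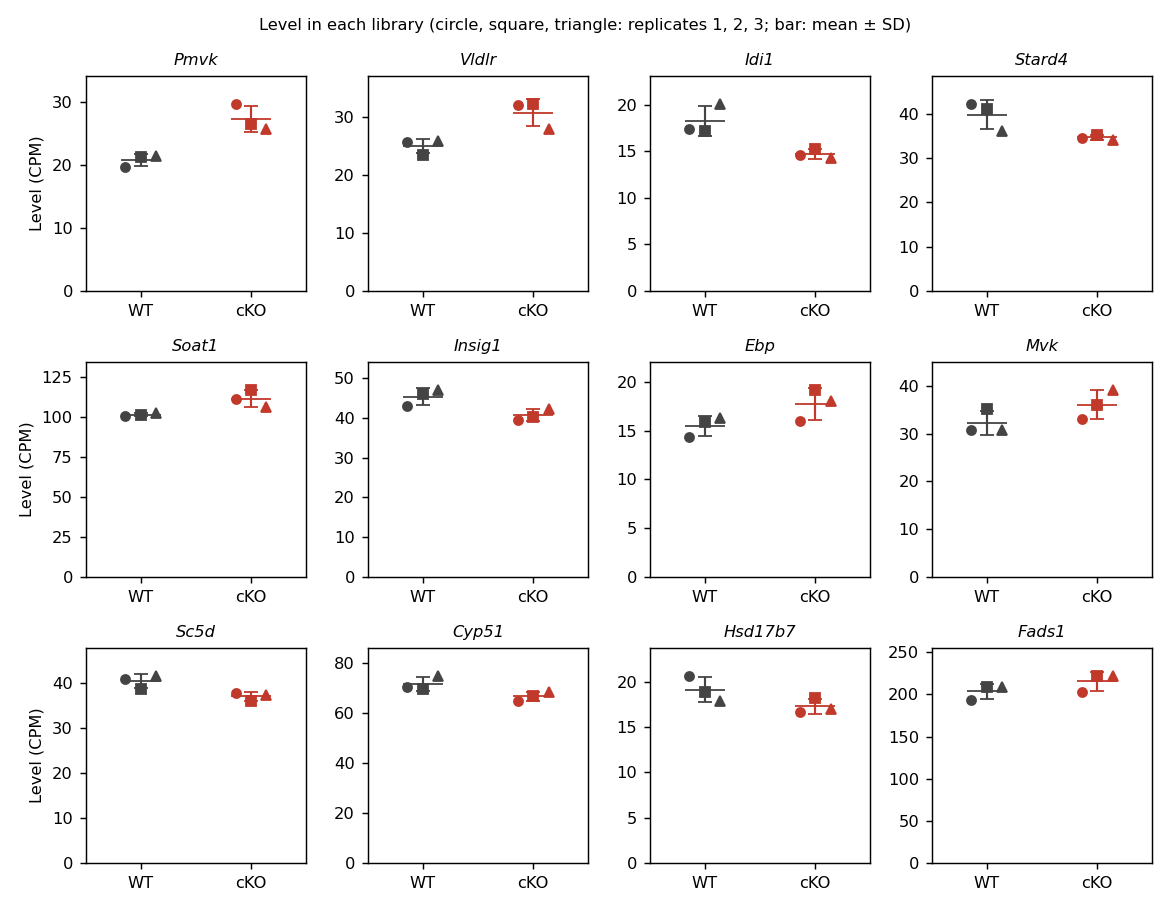
Level in CPM (vertical axes, starting at 0) of the 12 members with the lowest p in each of the 6 libraries, with the mean and SD of each group. The cKO libraries of Pmvk, Vldlr and Soat1 all lie above the WT libraries, those of Idi1, Stard4, Insig1, Sc5d and Cyp51 all lie below, and in the other 4 genes the groups overlap.

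Of the 5 genes that control SREBP, 0 passed the test in edgeR, DESeq2 or limma-voom, and 1, Insig1, had an unadjusted p under 0.05 in edgeR. For all genes tested these shares were 8.34% and 23.3% in edgeR. Insig1, itself a target of SREBP and so a gauge of its activity in many cells, had 43.0, 45.9 and 47.0 CPM in WT against 39.3, 40.2 and 42.3 CPM in cKO. The groups were close but did not overlap, and the log2 fold change was -0.16 (SE 0.07, edgeR adjusted p = 0.177). Insig2, the isoform gene that is less tied to SREBP, had 24.7, 28.0 and 25.0 CPM in WT against 25.2, 25.4 and 25.5 CPM in cKO (95% interval of the log2 fold change -0.20 to 0.14).

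The transcription factor genes and Scap varied more among the cKO libraries than between the groups. Srebf2, which encodes SREBP-2, had 178, 184 and 183 CPM in WT against 147, 183 and 204 CPM in cKO. Srebf1, which encodes the SREBP-1 forms that favour fatty acid synthesis, had 58.0, 61.3 and 64.4 CPM in WT against 46.7, 61.6 and 67.2 CPM in cKO. Scap had 139, 144 and 141 CPM in WT against 124, 156 and 171 CPM in cKO. In all 3 genes cKO replicate 1 was the lowest of the 6 libraries and cKO replicate 3 the highest. The log2 fold changes were -0.03 for Srebf2, -0.06 for Srebf1 and 0.09 for Scap (edgeR adjusted p = 0.888, 0.790 and 0.604). Without cKO replicate 1 they were 0.09, 0.07 and 0.21, and Scap alone of these then passed (edgeR adjusted p = 0.0070). Without cKO replicate 3 they were -0.14, -0.18 and -0.01, and 0 of these genes passed. cKO replicate 1 was the lowest of the 3 cKO libraries in 25 of the 34 members, against 39.7% of all genes tested. The part of the stroma and myoid marker levels of that library in these values was not tested.

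**Figure D3:**
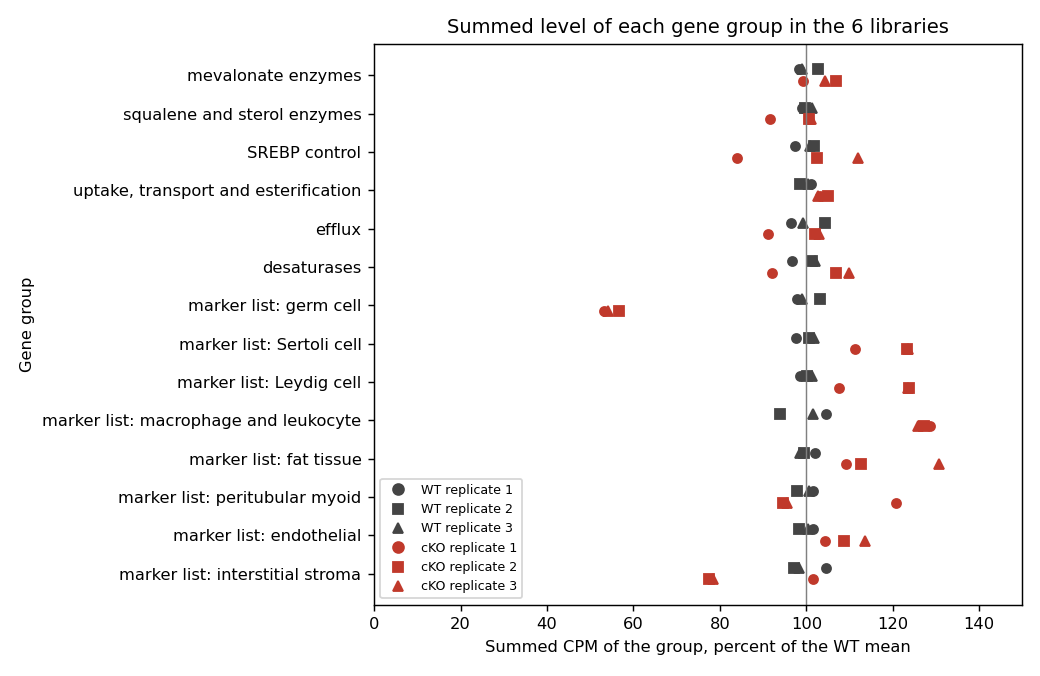
Summed CPM of each role and of each marker list in the 6 libraries, as a percentage of the WT mean (horizontal axis), with the replicate given by the marker shape. Among the roles the SREBP control genes spread most within cKO. Their sum is lowest in cKO replicate 1, at 382 CPM, and highest in cKO replicate 3, at 510 CPM. The germ cell list separates the groups most. The groups also do not overlap in the Sertoli, Leydig, macrophage, fat and endothelial lists. Among the roles they lie apart in uptake, transport and esterification (321 to 329 CPM in WT, 334 to 342 CPM in cKO).

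Among the 5 genes of uptake, intracellular transport and esterification, Vldlr rose, 0 fell and 4 did not pass, and 3 had an unadjusted p under 0.05, where 8.34% of all genes were called and 23.3% had such a p. Vldlr (chromosome 19, 27216484 to 27254231, GRCm38, plus strand) encodes a receptor that takes up triglyceride-rich lipoproteins and also binds reelin. It had 25.6, 23.5 and 25.7 CPM in WT against 32.0, 32.2 and 27.9 CPM in cKO, so that the groups did not overlap. The log2 fold change was 0.30 (SE 0.08, edgeR adjusted p = 0.0441), a rise of 23.1%. The call was lost without WT replicate 1, 2 or 3 (edgeR adjusted p = 0.114, 0.204 and 0.104), without cKO replicate 2 (0.184) and when scaled by library size only (0.0558), while the fold change stayed between 0.26 and 0.36 in every alternative tried.

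Soat1, which encodes the enzyme that esterifies cholesterol for storage, had 100.3, 101 and 102 CPM in WT against 111, 117 and 106 CPM in cKO. The WT values were tightly spaced and all lay below the cKO values, but the log2 fold change of 0.14 (SE 0.06) had an edgeR adjusted p of 0.156. Stard4, a carrier of cholesterol between membranes, had 42.2, 41.1 and 36.2 CPM in WT against 34.6, 35.3 and 34.1 CPM in cKO. Its groups did not overlap either, in the opposite direction (log2 fold change -0.20, SE 0.07, edgeR adjusted p = 0.126). Npc1 and Npc2, whose proteins release cholesterol from lysosomes, had 95% intervals from -0.24 to 0.10 and from -0.07 to 0.18.

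The 2 efflux pump genes did not pass in edgeR, DESeq2 or limma-voom, and 0 had an unadjusted p under 0.05. With edgeR, 8.34% of all genes tested passed and 23.3% had such a p. Abca1, which loads cholesterol onto lipid-poor apolipoproteins, had 165, 177 and 168 CPM in WT against 156, 171 and 175 CPM in cKO (log2 fold change -0.02, 95% interval -0.15 to 0.10). Abcg1, which loads it onto lipoprotein particles, had 21.9, 25.9 and 24.7 CPM in WT against 20.9, 27.5 and 24.6 CPM in cKO (0.01, 95% interval -0.21 to 0.24). The values of the groups were interleaved in both genes.

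Scd2, Fads2 and Fads1 were among the most abundant members and Scd1 was not. None of these 4 desaturase genes passed in edgeR, DESeq2 or limma-voom or had an unadjusted p under 0.05. All genes tested passed in 8.34% and had such a p in 23.3% of cases in edgeR. Scd2, the stearoyl-CoA desaturase gene of embryonic and neural tissue, had 857, 893 and 911 CPM in WT against 806, 941 and 987 CPM in cKO (log2 fold change 0.04, SE 0.07, edgeR adjusted p = 0.790). Scd1, the form best known from liver and fat, had 12.9, 15.9 and 15.5 CPM in WT against 15.01, 15.73 and 16.9 CPM in cKO (0.11, SE 0.10, edgeR adjusted p = 0.586). Of the 10 fat tissue markers, Adipoq, Cidec, Ucp1 and Lep were too low to be kept, each with at most 8 counts in a library. Of the 6 kept, Cidea rose (0.43), and 4 were fitted above 0 and 2 below. Their log2 fold changes ran from -0.38 to 1.35 with a median of 0.15. The summed level of the list was 37.8 to 39.0 CPM in WT against 41.8 to 50.1 CPM in cKO, without overlap, and its part in the desaturase values was not tested. Fads1 and Fads2 encode the desaturases that make long polyunsaturated fatty acids, which are enriched in testis lipids. Fads1 had 193, 209 and 209 CPM in WT against 202, 222 and 222 CPM in cKO, with overlapping groups and a log2 fold change of 0.08 (SE 0.06, edgeR adjusted p = 0.439), and Fads2 had a 95% interval from -0.16 to 0.15.

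Compared per length of the gene model, the levels in WT spanned from Scd2 at 163 ± 5.06 CPM per kb (SD, n = 3) to Tm7sf2 at 0.278 ± 0.052 CPM per kb. Scd2 was followed by Fads2 (118 ± 3.1, on a gene model of 1508 bases), Hmgcs1 (59.5 ± 1.9) and Fads1 (59.0 ± 2.6), and the values of the last 2 overlapped over the WT libraries while the steps above them did not. Next came Srebf2 (25.3 ± 0.42), then Scap (19.0 ± 0.35) and Npc2 (18.3 ± 1.0), whose values overlapped. From Abca1 (16.4 ± 0.59) through Fdft1, Cyp51 and Nsdhl to Insig1 (14.7 ± 0.67) each gene overlapped the next in the order. Pmvk (12.2 ± 0.60) overlapped Mvk (12.1 ± 0.92) in WT, while in cKO it was at 16.0 CPM per kb and Mvk at 13.5. Vldlr (2.48 ± 0.13), the other gene that rose, came near the bottom, just above Fdps (0.799 ± 0.109) and Tm7sf2.

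**Figure D4:**
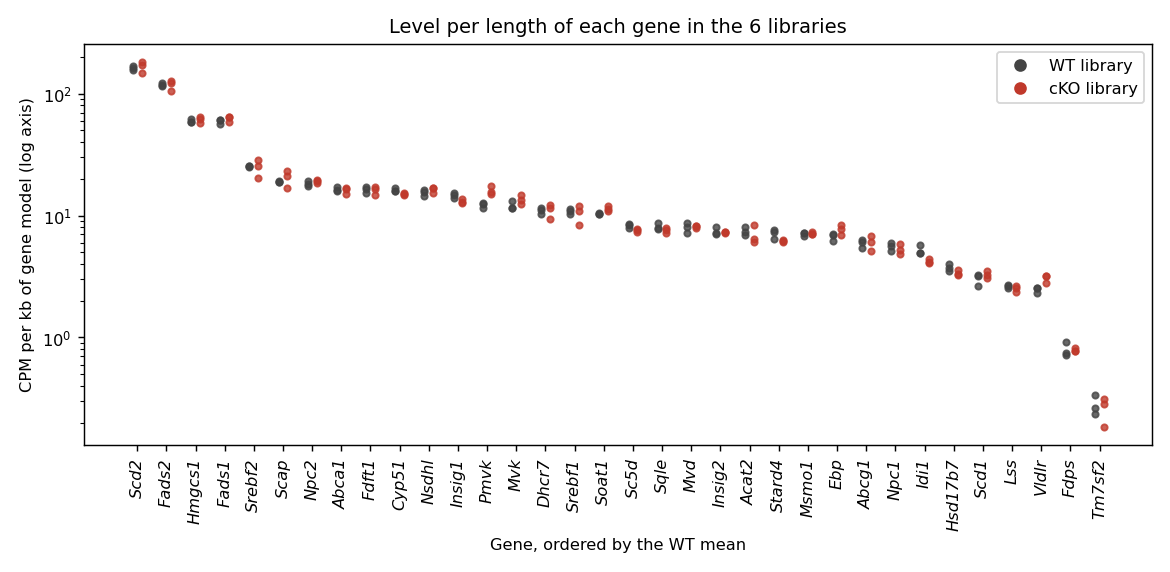
Level per kb of gene model (vertical log axis, CPM per kb) of the 34 genes in each of the 3 WT and 3 cKO libraries, ordered by the WT mean. The desaturase genes Scd2, Fads2 and Fads1 and the synthase gene Hmgcs1 lead, Fdps and Tm7sf2 close the order, and WT and cKO points lie close together for nearly all genes.

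Other genes of these pathways were taken from 5 further lists of 84 genes, of which 83 were matched and 78 kept. Of these, 7 rose, 4 fell and 67 did not pass, and the median log2 fold change was 0.01. The share called was 14.1%, against 8.34% of all genes and 11% of genes at least as abundant as the least abundant member. Among 9 genes beside the main synthesis route, Acat1, the mitochondrial thiolase gene, rose (0.20) and Ggps1, whose enzyme makes geranylgeranyl diphosphate from farnesyl diphosphate, fell (-0.25). The called share of these 9 was 22.2%. Among 12 genes of SREBP processing and degradation, Erlin1, which encodes an endoplasmic reticulum protein that restrains SREBP activation, fell and 0 rose (8.33% called). Erlin1 had 40.7, 42.4 and 37.4 CPM in WT against 29.5, 27.8 and 31.5 CPM in cKO (log2 fold change -0.44, SE 0.08, edgeR adjusted p = 0.0042), with a clear gap between the groups.

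Of 16 genes of lipoprotein uptake and sterol transport, 3 rose and 0 fell (18.75% called, against 8.34% of all genes tested). Apoe, which encodes the apolipoprotein that the VLDL receptor binds, had 143, 135 and 143 CPM in WT against 188, 191 and 198 CPM in cKO (log2 fold change 0.46, SE 0.05, edgeR adjusted p = 0.00021). Gramd1a, which encodes an Aster protein that moves cholesterol from the plasma membrane to the endoplasmic reticulum, rose by 0.36 on the log2 scale. Scarb1, the receptor for high density lipoprotein, rose by 0.41 with overlapping groups and with cKO replicate 1 at 142 CPM against 205 and 210 CPM in the other 2 cKO libraries. Of 12 kept genes of efflux and oxysterol response, Cyp27a1, the sterol 27-hydroxylase gene, rose and 0 fell (8.33% called, close to the share of all genes). It had 12.04, 11.81 and 11.77 CPM in WT against 17.6, 18.2 and 17.7 CPM in cKO (log2 fold change 0.59, SE 0.09, edgeR adjusted p = 0.0014), with little spread within either group.

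Of 29 kept genes of fatty acid synthesis and elongation, 2 rose and 2 fell (13.8% called, against 8.34% of all genes tested). The elongation genes Elovl1 (0.33) and Tecr (0.24) rose, and Lpin1 (-0.41) and Dgat2 (-0.44), which act in triglyceride synthesis, fell. Tecr lies in the chromosome 8 segment named above. With single libraries left out, Apoe, Cyp27a1 and Erlin1 passed each time. Gramd1a lost its call when any WT library was left out, and Acat1 and Dgat2 also when cKO replicate 2 was. Lpin1 lost it when WT replicate 2, WT replicate 3 or cKO replicate 2 was dropped. Ggps1, Scarb1, Elovl1 and Tecr lost theirs when any library but cKO replicate 1 was left out. The highest edgeR adjusted p among these 4 was 0.213, for Scarb1 without cKO replicate 2, and Scarb1 also failed in DESeq2 (adjusted p = 0.132) and in the robust fit (edgeR adjusted p = 0.175). Acat1 also failed when scaled by library size only (edgeR adjusted p = 0.0537) and when genes of low counts stayed in (0.0627).

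Markers of other cells moved with the genotype as well. Over all genes tested, 3.4% were called higher in cKO. Of 10 Leydig cell markers 4 rose, Scarb1 among them, and 9 were fitted above 0 and 1 below. The summed level of these markers was 1057 to 1087 CPM in WT against 1154 to 1328 CPM in cKO. Of 10 Sertoli cell markers 3 rose, with sums of 4331 to 4521 CPM in WT against 4937 to 5481 CPM in cKO. Of 10 macrophage and leukocyte markers 4 rose, with sums of 82.7 to 92.3 CPM in WT against 111 to 113 CPM in cKO. Among 10 interstitial stroma markers 2 rose and 2 fell. The endothelial list had 1 marker that rose, and the peritubular myoid list had 0 that passed. Pmvk, Vldlr, Apoe and Cyp27a1 were among the called lipid genes that rose, and Erlin1, Ggps1, Dgat2 and Lpin1 fell. Scarb1 stands both in the Leydig cell list and among the lipid genes. The part of these cells in the values of the lipid genes was not tested.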

How the data were processed

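The authors deposited unnormalized read counts, obtained with featureCounts 1.6.4 on the gene's strand of GENCODE M18 models, per the file headers. Reads were not counted as pairs, and reads at more than 1 place or over more than 1 gene were not counted, since the header sets no option for them. The submitters' processing notes name cutadapt, HISAT2 and GRCm38.p5, and the versions of both tools are not given in the sources used here. Per the labels' protocols, libraries were primed with random and poly(T) primers and depleted of unwanted transcripts. Multi-mapping reads lower the counts of genes with near-identical copies.

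Of 54232 genes, 54079 were named from GENCODE M21, and 0 columns were without a sample. Genes were kept by filterByExpr (minimum count 10, minimum total 15) and scaled by TMM. Groups were compared with edgeR 4.0.16 (quasi-likelihood, group as the only term, two-sided, R 4.3.3), with Benjamini-Hochberg adjustment over all 20153 genes kept and a threshold of 0.05. DESeq2 1.42.0 and limma-voom (limma 3.58.1) were alternatives, beside other scalings, filters, a robust fit, a block for the replicate number and each library left out. The same alternatives were run after seeing the data for the members and pathway genes outside the 12 described in full. The procedure was tested on simulated data. Shared transcript sequence was counted as exact stretches of 50 bases, on either strand, in GENCODE M21 transcripts. Promoter windows are from RefSeq.

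The members and lists were chosen with earlier results of these data known. Described in full are called members and those next by p, up to 12, and of each other pathway list up to 4 called genes. Levels per kb use the model length of the table. Figures were drawn with matplotlib 3.10.9.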

Additional observations from a re-analysis of the deposited data

How the results depend on the processing

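Among the 34 genes, 14 alternatives gave 476 values, of which 465 kept their direction where called and their side of the threshold, 8 lost a call, 3 gained one and 0 reversed. A change of sign counted as reversed only where a gene was called. Uncalled members near 0 did change sign, Dhcr7 in 4 of the 14 alternatives and Msmo1 in 3. With library size alone as the scaling, 1 member was called higher and 1 lower, in place of 2 and 0. With single libraries left out, between 0 and 3 members were called higher and between 0 and 1 lower, and the count over all genes ran from 623 without WT replicate 2 to 3375 without cKO replicate 1, against 1681 with all libraries. The count over all genes was 759 without WT replicate 1, 837 without WT replicate 3 and 801 without cKO replicate 2. Without cKO replicate 1 the members' median log2 fold change was 0.06, and otherwise it lay between -0.04 and 0.02. The cause of these shifts was not tested.

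The replicate numbers pair the samples by number only, since deviations of same-numbered samples correlated at 0.03, 0.01 and 0.07, and WT replicate 2 correlated best with cKO replicate 1. With the replicate block, 1 member was called higher and 0 lower, because Vldlr had an edgeR adjusted p of 0.0572, and 1798 genes were called in all. With 3 samples a group at this depth, differences of -19.3% in Idi1, -13.0% in Stard4 and 14.7% in Ebp did not pass.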
